A study of Arabidopsis thaliana with 9 samples.

Results

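Gene activity in roots was set against that in leaves of hydroponically grown, wild-type Arabidopsis thaliana of the Col-0 accession, on an array made mainly for lincRNAs, long non-coding RNAs transcribed from the stretches between known genes. The comparison used 6 of the 9 arrays of the study, 3 hybridised with root RNA and 3 with leaf RNA. It covered 1898 of the 5077 genes on the array, those with a signal well above background on all 3 root arrays, all 3 leaf arrays, or both. Root and leaf samples both came from plants 30 days old that grew in full-strength MGRL medium at 22 °C under days of 16 h light and 8 h dark. No group carried a mutation, transgene or treatment. Each array held 1 biological replicate. The sources used here do not say which leaves or root zones were taken, at what time of day, or whether a root and a leaf sample came from the same plants. The other 3 arrays held inflorescence RNA and entered through the scaling, the choice of the probe for each gene and the shared estimate of the spread.

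Roots and leaves read the same genome in very different settings. Leaf cells carry chloroplasts and respond to light through phytochromes, photoreceptors that act on transcription factors called phytochrome-interacting factors (PIFs). Roots take up water and minerals and hold non-green plastids. microRNAs are cut from longer hairpin transcripts, the precursors measured here, and guide the silencing of target transcripts, many of which encode transcription factors. A precursor's signal is not the level of the mature microRNA.

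Signals are given on a log2 scale on which 0 is the 75th percentile, on each array, of the 1345 probes that were well above background on all 9 arrays. Differences are root minus leaf, so that 1 unit is 2-fold and a positive value is higher in root, and the ± beside a difference is the standard error from the fit. A gene was called when limma's adjusted p was under 0.05 and the difference at least 2-fold. Levels of different genes are not comparable on this scale, because each probe binds with its own strength. In RNA from a whole organ, fewer cells of a type and less RNA per cell cannot be told apart.

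The share of probes well above background was 36.1%, 39.9% and 25.1% on root replicates 1 to 3, and 37.3%, 10.7% and 24.8% on leaf replicates 1 to 3. Leaf replicate 2 stood apart: its lowest processed signal was 5.83, against 0.786 to 1.33 on the other arrays, so that dim genes could not be seen there. Slide 1 held replicates 1 and 2 of each organ, and slide 2 held replicate 3. No member of the lists of 23 root cell type markers and 19 leaf and photosynthesis markers was on the array, so the labelled organs could not be checked by them.

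Of the 1898 genes, 297 were called higher in root (15.6%) and 191 lower in root (10.1%), 488 in all (25.7%). Admission to the test was uneven: 1845 genes were well above background on every root array, 754 on every leaf array and 701 on both sets. The filter therefore favoured genes seen in root. With only the 701 tested, 80 were higher and 133 lower in root, so the excess toward root was not seen there. Without leaf replicate 2, 1918 genes passed on the remaining leaf arrays, and 321 were called higher and 238 lower. The median difference over all genes tested was 0.13. Root and leaf arrays did not overlap for 43.7% of genes, 27% with root above leaf and 16.7% with root below leaf. Without the call rule, 752 genes had an unadjusted p under 0.05 by limma. The classes differed in how many members were called: 195 of 1431 lincRNAs were higher and 89 lower in root, against 65 and 56 of 281 annotated non-coding loci, 16 and 20 of 96 microRNA precursors and 21 and 26 of 87 protein-coding genes. These counts come to 19.8%, 43.1%, 37.5% and 54% of each class, whose median differences were 0.13, 0.18, -0.08 and 0.28. The coding genes on the array are a chosen set, so their share says nothing of coding genes at large.

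**Figure D1:**
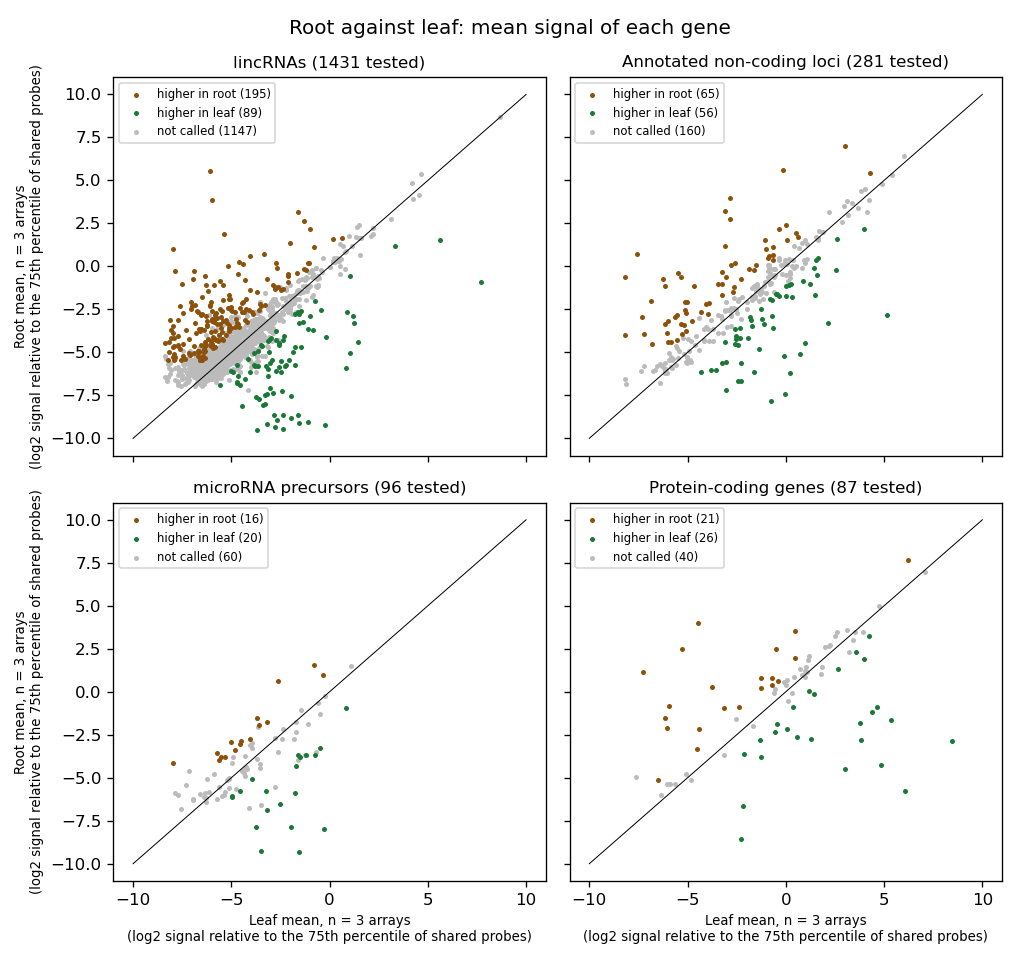
Mean signal in root (vertical axis) against mean signal in leaf (horizontal axis) for each of the tested genes of 4 classes, both as log2 signal relative to the 75th percentile of shared probes, n = 3 arrays per organ. Brown points were called higher in root, green points higher in leaf and grey points were not called; most called lincRNAs lie at low signals, and the line marks equal signal.

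Of the 297 genes higher in root, 80 were well above background on all 6 arrays, 170 on some leaf arrays and 47 on none. Of the 191 lower in root, 129 were measured on all 6 arrays, 39 on some root arrays and 23 on none. Among the 701 genes measured on all 6 arrays the median difference was -0.13. Calls higher in root made up 60.9% of the total. They made up 80% when arrays were scaled to the median of all probes, a change that moved the median of all genes to 0.85, and 33.2% with normexp background correction, which moved it to -0.7. They made up 37.6% among the genes measured on all 6 arrays and 51.7% with slide as a block and leaf replicate 2 left out, where 405 genes were higher and 378 lower of 2250 tested.

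Light signalling held some of the largest differences among coding genes, in both directions. Of 11 tested members, 2 were higher in root, 4 were lower and 5 were not called, with a list median of 0.17. Over all tested coding genes 24.1% were higher and 29.9% lower, so these counts are close to the background. The 4 lower members were the PIFs on the array, helix-loop-helix transcription factors that bind phytochromes and are degraded or inactivated in light. PIF4, which drives stem and petiole growth, had signals of -4.07, -4.16 and -4.54 on the root arrays, against 4.89, 4.77 and 4.85 on the leaf arrays. The organs were far apart, with every leaf array above every root array, and PIF4 was 546-fold lower in root (-9.09 ± 0.17, limma adjusted p = 2.66e-08). PIF5, listed as PIL6, stood at -2.76, -2.67 and -3.0 in root, against 3.90, 3.92 and 3.66 in leaf, a difference of -6.64 ± 0.16 (limma adjusted p = 8.82e-08).

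The same order held for the other PIFs. PIF3 had -2.76, -2.85 and -2.65 in root, against 1.13, 1.28 and 1.37 in leaf (-4.01 ± 0.14), and PIF1, listed as PIL5 and known for repressing seed germination in the dark, had -2.66, -2.66 and -2.59 in root, against 0.60, 0.51 and 0.62 in leaf (-3.21 ± 0.13). All 4 kept their calls in each alternative setting tried. The opposite pattern was seen for LAF1, which encodes a MYB factor that acts downstream of phytochrome A, with 1.16, 1.22 and 1.04 in root, against -8.80, -5.81 and -7.19 in leaf. LAF1 was not well above background on any leaf array, and its root signal was at least 145-fold higher than the lowest leaf signal that could have been seen. The fitted difference, which used the dim leaf signals, was 8.41 ± 0.78 (limma adjusted p = 9.21e-05). FHL, which helps phytochrome A into the nucleus, was also higher in root, with -0.97, -0.79 and -1.03, against -3.25, -3.01 and -3.11 in leaf (2.20 ± 0.18), although the call was lost with normexp (1.15).

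The photoreceptors themselves differed less. PHYA, the far-red receptor, had 3.51, 3.49 and 3.44 in root, against 2.45, 2.71 and 2.59 in leaf, and its difference of 0.89 ± 0.13 fell short of 2-fold while the arrays did not overlap. It passed 2-fold after quantile normalization (1.11), with normexp (1.07) and in the deposited values (1.12). PHYB, the main red-light receptor, differed by 0.17 ± 0.13 (limma adjusted p = 0.46). The ubiquitin ligase COP1 differed by -0.40 ± 0.12, the nuclear import factor FHY1 by 0.24 ± 0.15 and the bZIP factor HY5, which promotes greening, by 0.59 ± 0.22. Another probe of HY5 gave 1.92, and HY5 was called higher in root when its probes were averaged. HFR1 was not tested because it was well above background on 2 arrays of each organ.

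Genes of the abscisic acid, cold and drought response were mostly lower in root: of 12 tested members 7 were lower, 1 was higher and 4 were not called, and the list median was -1.32. Beside these, 29.9% of all tested coding genes were lower in root and 24.1% higher. COR15A, which encodes a cold-induced protein of the chloroplast stroma that protects membranes, had -5.92, -5.90 and -5.45 in root, against 5.99, 6.0 and 6.17 in leaf. The organs lay 3589-fold apart (-11.81 ± 0.17, limma adjusted p = 1.13e-08), and its weakest probe gave -6.35. COR15B, its close paralogue, had -2.88, -2.92 and -2.81 in root, against 8.48, 8.59 and 8.24 in leaf (-11.30 ± 0.15). Each of these genes was bright in all leaf arrays and dim in all root arrays. LTI78, also known as RD29A and a standard reporter of drought and cold signalling, had -1.79, -1.70 and -1.47 in root, against 5.24, 5.36 and 5.52 in leaf (-7.02 ± 0.18).

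KIN1, another cold-induced gene, stayed near background on all root arrays, with -9.13, -8.17 and -8.35 in root, against -2.20, -2.38 and -2.19 in leaf. Its leaf signal was at least 32.1-fold above what could have been seen in root. The fitted difference, which used the dim root signals, was -6.29 ± 0.25 (limma adjusted p = 8.57e-07). Smaller differences were found for LTI65, also known as RD29B (-1.51 ± 0.39), for the bZIP factor ABI5 (-1.48 ± 0.17) and for the phosphatase ABI2, a brake on abscisic acid signalling (-1.16 ± 0.15). The call of LTI65 was lost without root replicate 3, leaf replicate 1 or leaf replicate 2 (differences of -1.14, -1.43 and -1.38). Those of ABI5 and ABI2 were lost when arrays were scaled over all probes, with the direction kept. AFP1, whose product binds ABI5 and promotes its breakdown, was the 1 member higher in root, with 0.71, 0.68 and 0.98, against -1.19, -1.28 and -1.35 in leaf (2.07 ± 0.14, limma adjusted p = 1.92e-05). COR47, a dehydrin, was bright and close in both organs, with 7.04, 6.78 and 7.0 in root, against 7.09, 7.10 and 7.11 in leaf (-0.16 ± 0.16). The phosphatase ABI1 and the seed factors ABI3 and ABI4 differed by -0.42 ± 0.13, 0.28 ± 0.74 and 0.31 ± 0.61 and were not called.

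Of 8 circadian clock genes, 6 were lower in root and 0 higher, with a list median of -1.35, beside 29.9% lower over all tested coding genes. CCA1 and LHY, MYB-like factors that peak in the morning, were both lower in root. CCA1 had -3.66, -3.62 and -4.16 in root, against -1.31, -1.18 and -1.33 in leaf (-2.54 ± 0.18, limma adjusted p = 2.28e-05), and LHY had -1.81, -1.81 and -1.97 in root, against -0.51, -0.39 and -0.39 in leaf (-1.44 ± 0.13). Signals of each gene did not overlap between organs. The evening gene TOC1, a repressor of CCA1 and LHY, was 2.03-fold lower in root (-1.02 ± 0.13), just past the 2-fold limit, and lost its call without root replicate 3 (-0.99). CHE, a TCP factor listed as TCP11 that represses CCA1, differed by -2.06 ± 0.13, with 1.91, 1.87 and 1.95 in root, against 3.88, 3.95 and 4.08 in leaf. The pseudo-response regulators PRR3 and PRR5 differed by -1.58 ± 0.13 and -1.26 ± 0.13.

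PRR7 differed by -0.88 ± 0.13, short of the limit, and PRR9 had a difference of the other sign (0.92 ± 0.13), with -1.56, -1.70 and -1.54 in root, against -2.56, -2.54 and -2.47 in leaf. In all scalings tried, 7 of the 8 clock genes had differences below 0 and 1 above. The count of calls varied: 1 of 8 was called lower with the 75th percentile over all probes and 0 of 8 with the median of all probes. Under median scaling, which moved the median of all genes to 0.85, the clock median was -0.62.

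Jasmonate repressors of the JAZ family, which block MYC transcription factors until the hormone triggers their breakdown, were lower in root in 3 of 4 cases (list median -1.58). The share lower in root was 29.9% over all tested coding genes. JAZ9, listed as TIFY7, had -1.73, -1.84 and -1.85 in root, against 3.64, 3.64 and 4.02 in leaf, and was 47.5-fold lower in root (-5.57 ± 0.16, limma adjusted p = 1.57e-07). JAZ10 differed by -1.82 ± 0.18, with -2.31, -2.37 and -2.42 in root, against -0.66, -0.21 and -0.75 in leaf, and JAZ6 by -1.35 ± 0.13. JAZ5 differed by -0.36 ± 0.13 and was not called (limma adjusted p = 0.0761). With arrays scaled over all probes, by the 75th percentile or the median, JAZ9 kept its call and JAZ6 and JAZ10 did not.

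Genes of the small RNA machinery had 3 of 10 members higher in root and 0 lower, with a list median of 0.69. The share higher in root was 15.6% over all genes and 24.1% over coding genes, so this count is close to the background. RDR2, an RNA polymerase that makes double-stranded RNA for DNA methylation, had 0.74, 0.80 and 0.84 in root, against -0.87, -0.64 and -0.58 in leaf (1.49 ± 0.14, limma adjusted p = 0.000106). NRPD1, the largest subunit of RNA polymerase IV, which supplies RDR2 with transcripts, had 0.25, 0.05 and 0.35 in root, against -1.35, -1.29 and -1.10 in leaf (1.46 ± 0.17). DCL2, a Dicer-like enzyme of antiviral silencing, differed by 1.05 ± 0.12, near the 2-fold limit, and was under it after quantile normalization (0.93), with normexp (0.89) and in the deposited values (0.95). DCL1, the enzyme that cuts microRNA precursors, differed by 0.89 ± 0.14, with 2.11, 2.11 and 2.0 in root, against 1.17, 1.36 and 1.02 in leaf, which do not overlap. The polymerase V subunit NRPE1 (0.74 ± 0.13), AGO2 (0.65 ± 0.14), DCL4 (0.64 ± 0.13), DCL3 (0.52 ± 0.18), DRB4 (0.41 ± 0.13) and DRB2 (-0.04 ± 0.17) were not called. With the 75th percentile over all probes, 0 of the 10 were called and all 10 differences were above 0.

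**Figure D2:**
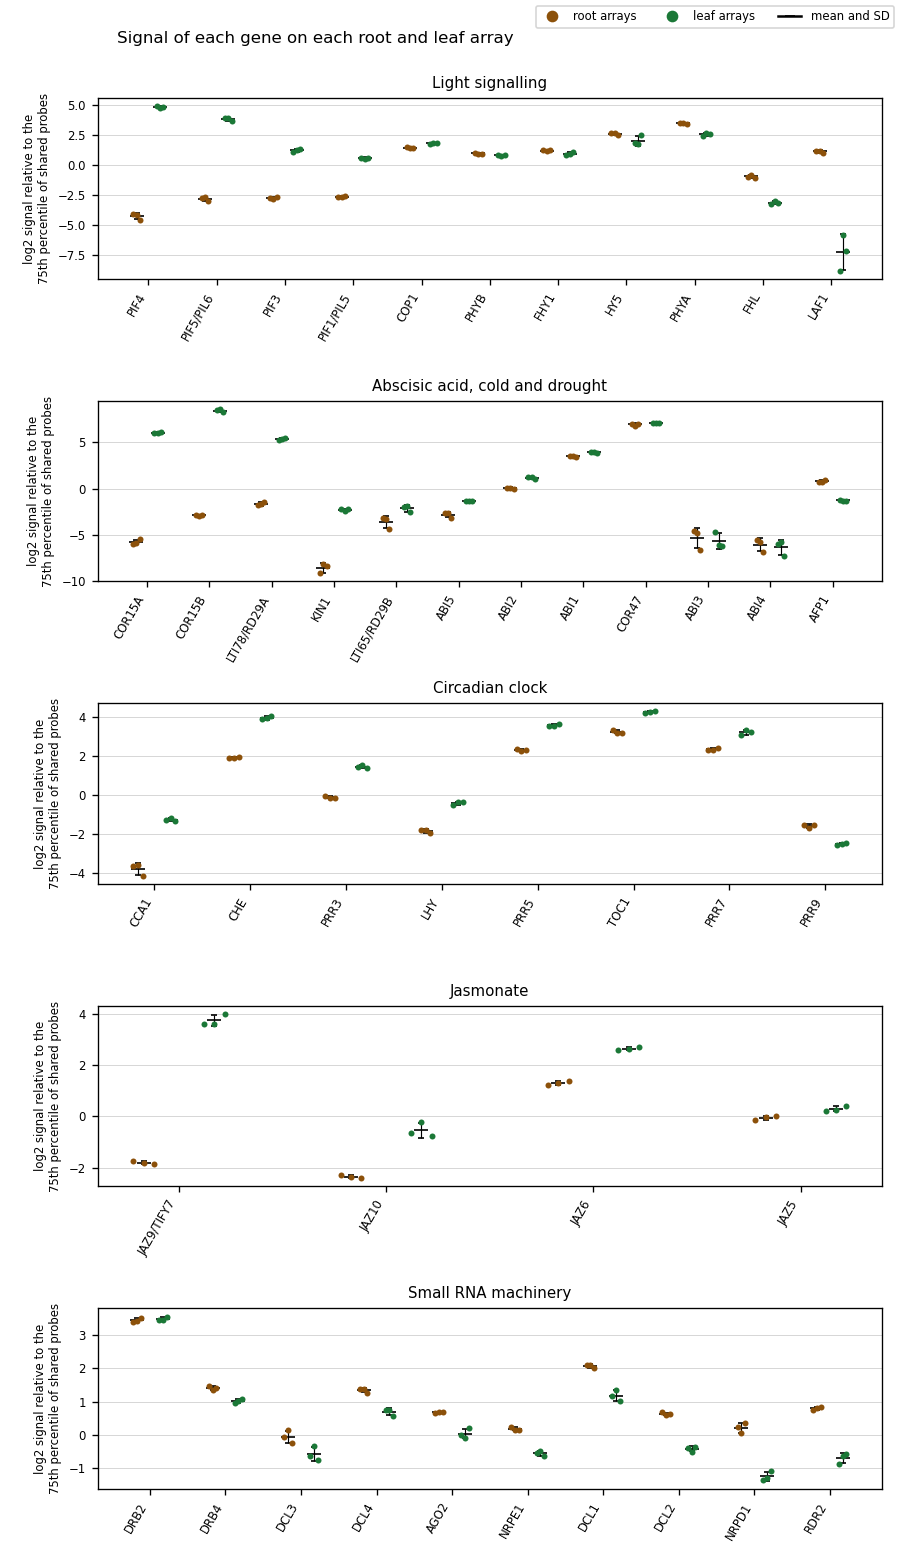
Signal of each tested gene of 5 lists on each array, as log2 signal relative to the 75th percentile of shared probes (vertical axis), with genes ordered from lower to higher root minus leaf difference. Brown points are the 3 root arrays, green points the 3 leaf arrays, and black marks the mean and SD; the PIFs, COR15A, COR15B and LTI78 lie high in leaf and low in root, while LAF1 shows the opposite.

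Among 10 tested genes with roles in embryo and seed, 3 were higher and 1 lower in root (list median 0.46). Of all tested coding genes 24.1% were higher and 29.9% lower, so the count higher in root is close to the background. WRKY35, a WRKY transcription factor, had 2.46, 2.43 and 2.56 in root, against -4.59, -6.14 and -5.09 in leaf, where it was well above background on 2 of 3 arrays (7.76 ± 0.36, limma adjusted p = 1.90e-06). MEE23 had 2.61, 2.50 and 2.33 in root, against -0.56, -0.56 and -0.33 in leaf (2.96 ± 0.17), and HOG1, the S-adenosylhomocysteine hydrolase that keeps methylation reactions running, differed by 1.42 ± 0.14. These genes were bright in root on every array. FUS3, a B3 transcription factor of seed maturation, was lower in root by 22.2-fold (-4.47 ± 0.35), with -6.17, -6.20 and -7.50 in root, against -2.02, -2.28 and -2.17 in leaf. The 3 other tested MEE genes, named for arrest of embryos with a mutant mother, differed by 0.39 ± 0.12 (MEE22), -0.33 ± 0.18 (MEE25) and 0.53 ± 0.92 (MEE27) and were not called, and DCL1, COP1 and ABI3, also on this list, are described with the other lists.

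Of 4 auxin genes, IAA30, a repressor of auxin responses, was called higher in root (1.17 ± 0.32) and SAUR76, a small auxin-induced gene, lower (-1.22 ± 0.14). Over all tested coding genes 24.1% were higher and 29.9% lower. SAUR76 lost its call when arrays were scaled over all probes, by the 75th percentile or the median. The call of IAA30 was lost without root replicate 1, 2 or 3, or leaf replicate 2 or 3 (differences of 0.83 to 1.31), and its sign turned with normexp (-0.27). The auxin exporter PIN3 and the auxin receptor TIR1 differed by 0.42 ± 0.14 and -0.30 ± 0.22 and were not called.

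Coding genes outside the lists included several regulators that were higher in root. AT1G65481, which neighbours the flowering gene FT in the TAIR10.1 gene table, had 4.11, 4.06 and 3.75 in root, against -3.85, -5.65 and -3.97 in leaf (8.46 ± 0.46). MYB107, a regulator of suberin formation in the seed coat, had -0.78, -0.81 and -0.90 in root, against -6.17, -5.91 and -5.83 in leaf (5.14 ± 0.15). NAC080, a NAC transcription factor, had 0.30, 0.27 and 0.28 in root, against -3.83, -3.67 and -3.76 in leaf (4.04 ± 0.12, limma adjusted p = 2.19e-07). For each of them the root arrays stood above all leaf arrays. MYB45 (4.63 ± 0.33) and MYB14 (3.93 ± 0.21) were also called, and both, like MYB107, lost the call with normexp (1.42, 0.57 and 1.63).

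Toward leaf, AT1G24148 had -4.08, -4.07 and -5.25 in root, against 2.97, 3.00 and 3.00 in leaf (-7.46 ± 0.32). PSA2, listed as EDA3 and needed for photosystem I to accumulate in chloroplasts, had -1.19, -1.12 and -1.16 in root, against 4.35, 4.38 and 4.46 in leaf, 47-fold lower in root (-5.56 ± 0.13, limma adjusted p = 8.54e-08). AT5G16010 differed by -5.54 ± 0.14. NF-YA5, a subunit of the NF-Y transcription factor that acts in drought response, had -2.12, -2.20 and -2.25 in root, against -0.02, 0.20 and -0.05 in leaf (-2.23 ± 0.14). Only these 4 coding genes outside the lists were called lower in root.

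lincRNAs made up most of the genes called because they were most of those tested (1431 of 1898). A smaller share of them was called than of all genes, 19.8% against 25.7%. Toward root, AT5TU074240 on chromosome 5 had the largest difference of those measured on all 6 arrays, with 3.14, 3.16 and 3.16 in root, against -1.67, -1.64 and -1.51 in leaf (4.76 ± 0.13). AT1TU020060 on chromosome 1 had 2.50, 2.61 and 2.77 in root, against -1.31, -1.23 and -1.38 in leaf (3.94 ± 0.14). AT1TU073080, also on chromosome 1, had 2.21, 2.20 and 2.19 in root, against -1.15, -1.0 and -0.88 in leaf (3.21 ± 0.16). Spread within an organ was small beside these differences. AT5TU070830 (4.08 ± 0.14) and AT1TU070170 (2.92 ± 0.20) followed the same pattern, and all probes of these 5 lincRNAs pointed toward root.

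The probes of a lincRNA did not always go together. The difference of AT5TU044080 was 3.37 ± 0.13 by its brightest probe and -1.13 by another. For AT3TU058300, AT2TU001240, AT1TU011860 and AT1TU078160, with differences of 2.54 ± 0.37, 2.44 ± 0.26, 2.32 ± 0.47 and 2.21 ± 0.16, the lowest probes gave -1.08, -0.30, -4.23 and -0.01. When the probes of a gene were averaged, these 4 and AT5TU044080 lost their calls, and AT1TU011860 changed sign (-0.85). Over the 476 called genes with more than 1 probe, 80.2% of the 1023 other probes had the same sign as the probe that stood for the gene. Of the 614 other probes that were themselves detected in the higher organ, 99.2% did. These 614 were kept by their signal in the organ called higher, which favours the same sign, so that share is no check on the calls. Of the 476 genes, 145 had a probe that did not share the sign.

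**Figure D3:**
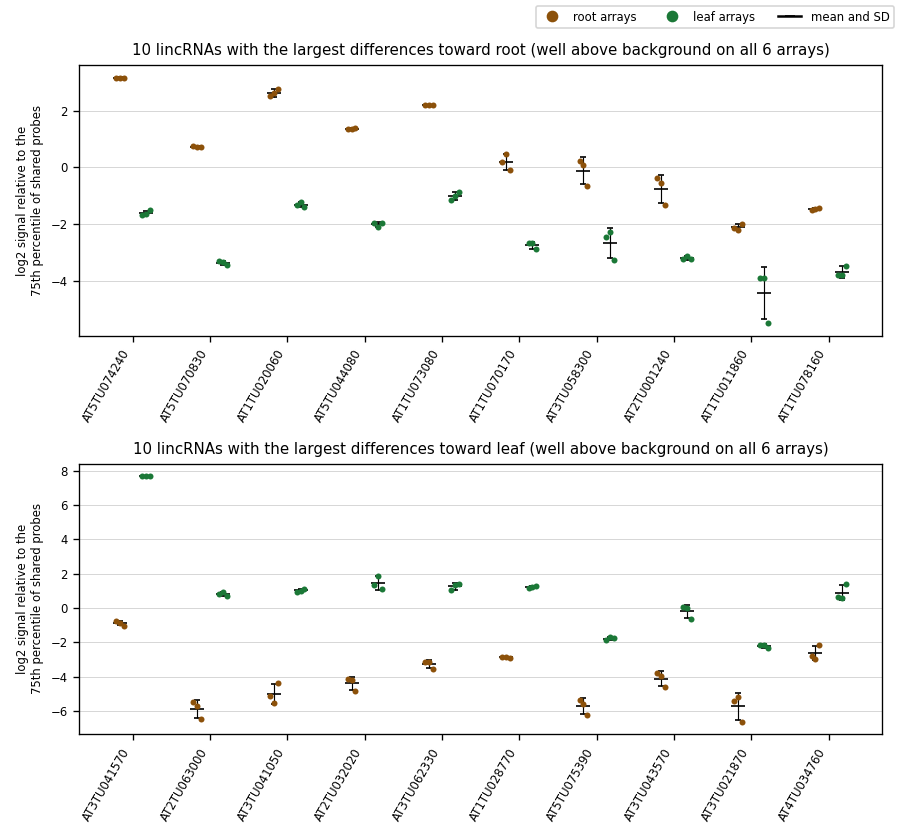
Signal on each array, as log2 signal relative to the 75th percentile of shared probes (vertical axis), of the 10 called lincRNAs with the largest differences toward root (upper panel) and toward leaf (lower panel) among those well above background on all 6 arrays. Brown points are root arrays, green points leaf arrays, and black marks the mean and SD. The organs do not overlap for any of the 20 lincRNAs, which were picked for large differences, against 43.7% of all genes tested.

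Toward leaf, among lincRNAs well above background on all 6 arrays, AT3TU041570 on chromosome 3 had -0.77, -0.85 and -1.03 in root, against 7.70, 7.69 and 7.71 in leaf, 383-fold lower in root (-8.58 ± 0.15, limma adjusted p = 2.56e-08), though its weakest probe gave -0.26. AT2TU063000 on chromosome 2 had -5.50, -5.70 and -6.47 in root, against 0.82, 0.94 and 0.68 in leaf (-6.70 ± 0.26), and its probes spanned -7.51 to -6.29. AT3TU041050 had -5.10, -5.57 and -4.36 in root, against 0.94, 1.01 and 1.14 in leaf (-6.04 ± 0.35). The leaf arrays of each were within 1 unit of one another. AT2TU032020 (-5.84 ± 0.30) had 1 probe that was level (0.05), while all probes of AT3TU062330 (-4.54 ± 0.19) and AT1TU028770 (-4.09 ± 0.12) pointed toward leaf. The remaining 4 of the 10 largest, AT5TU075390, AT3TU043570, AT3TU021870 and AT4TU034760, differed by -3.94 ± 0.31, -3.93 ± 0.32, -3.54 ± 0.38 and -3.51 ± 0.33, and AT3TU043570 lost its call when probes were averaged (-1.52).

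Some lincRNAs were seen in 1 organ only at this sensitivity. Of the lincRNAs on the array, 98 were well above background on all root arrays and no leaf array, and 16 on all leaf arrays and no root array. Without leaf replicate 2 these counts were 98 and 70. AT1TU043160 had 1.03, 1.0 and 0.99 in root, against -9.04, -6.36 and -8.52 in leaf, at least 141-fold higher in root. The bounds were at least 58-fold for AT1TU072870, 57.6-fold for AT5TU070210, 42.6-fold for AT3TU026210 and 33.8-fold for AT2TU035760. AT4TU026070, at least 14.9-fold higher in root, lost its call without root replicate 3 or leaf replicate 1 (fitted differences of 4.30 and 4.38). It also lost the call with normexp, within slide 1 and when its probes were averaged. Only 1 of its 3 probes pointed toward root, and the lowest gave -1.80.

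Seen in leaf and not in root was AT4TU026320, with -9.14, -8.89 and -9.72 in root, against -0.21, -0.25 and -0.20 in leaf, at least 132-fold lower in root. Its fitted difference, which used the dim root signals, was -9.03 ± 0.22 (limma adjusted p = 8.54e-08). The bounds toward leaf were at least 70.7-fold for AT5TU002970, 51.2-fold for AT5TU042690, 39-fold for AT1TU038050 and 29.9-fold for AT1TU097140. The weakest probes of these 4 gave fitted differences of -0.73, -0.58, -0.86 and -1.39. Each bound rests on 1 probe per gene and was taken against the lowest signal well above background on the dimmer arrays or the gene's own signal where that was higher. Larger fitted differences toward root came from lincRNAs measured on 2 of 3 leaf arrays. AT4TU029580, named here after its values were seen, had 5.51, 5.45 and 5.62 in root, against -6.47, -6.11 and -5.70 in leaf, while another of its probes gave -0.77.

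The share of tested lincRNAs that were called was 23.8% on chromosome 1, 16.1% on chromosome 2, 19.3% on chromosome 3, 16.4% on chromosome 4 and 21.2% on chromosome 5. lincRNA names carry a running number along the chromosome. Of 18 pairs of called lincRNAs with numbers at most 30 apart, 16 went the same way, 11 toward root and 5 toward leaf. Over all 261 tested pairs at that spacing, 151 had the same sign. Whether close numbers belong to 1 longer transcript was not tested. The longest run lay on chromosome 4, where AT4TU026280, AT4TU026290, AT4TU026300 and AT4TU026320 were all lower in root. AT4TU026290 had -8.79, -9.23 and -9.35 in root, against -1.65, -1.52 and -1.55 in leaf, at least 51.5-fold lower in root. AT4TU026280, also unseen on the root arrays, was at least 12.9-fold lower in root. AT4TU026300 differed by -4.20 ± 1.0, with 1 root array well above background.

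Annotated non-coding loci are transcripts that the gene table lists as non-coding. Higher in root were AT3G52748, with 3.93, 4.00 and 3.92 in root, against -2.90, -2.65 and -2.96 in leaf (6.79 ± 0.22), and AT5G07322, with 5.73, 5.47 and 5.54 in root, against -0.24, -0.14 and -0.12 in leaf (5.74 ± 0.13). AT3G27884 was not well above background in leaf and was at least 118-fold higher in root, and AT3G14185 at least 45.4-fold. AT5G37485 differed by 4.26 ± 0.17 and AT4G20362 by 5.55 ± 0.41. AT4G20362 overlaps the coding genes AT4G20350 and RABE1b in the TAIR10.1 gene table, and whether its signal includes theirs was not tested. AT3G25795, the TAS4 locus, whose transcript is cut into small RNAs that target MYB factors of anthocyanin synthesis, had -4.33, -4.42 and -4.49 in root, against -5.84, -6.10 and -5.58 in leaf. TAS4 was called higher in root (1.43 ± 0.17), but its sign turned with normexp (-0.46), and 1 of its 3 probes gave -0.39.

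The largest difference toward leaf in this class was that of AT4G13495 on chromosome 4, with -2.70, -2.69 and -3.02 in root, against 5.2, 5.31 and 4.99 in leaf. It was 251-fold lower in root (-7.97 ± 0.19, limma adjusted p = 8.54e-08), and its 6 probes spanned -7.97 to -7.25. In the TAIR10.1 gene table this locus overlaps the microRNA genes MIR5026, MIR850 and MIR863. The precursors of MIR850 and MIR863 were lower in root too. MIR850 had -7.98, -7.23 and -8.72 in root, against -0.26, -0.40 and -0.15 in leaf, at least 124-fold lower in root, and MIR863 had -9.16, -9.56 and -9.22 in root, against -1.58, -1.51 and -1.58 in leaf, at least 52.2-fold lower. These loci overlap, and whether their probes bind 1 transcript or several was not tested.

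Other loci lower in root were AT2G23672 (-6.40 ± 0.17), AT5G06865 (-5.82 ± 0.69), AT3G22121 (-5.42 ± 0.20) and AT4G12917 (-5.41 ± 0.13). The first 3 overlap coding genes in the TAIR10.1 gene table: AT2G23672 overlaps YCF37, a factor of photosystem I assembly, AT5G06865 overlaps PGIP1, an inhibitor of fungal pectinases, and AT3G22121 overlaps CWLP, a proline-rich cell wall protein. Outside the rule for naming genes, and named after their values were seen, AT3G21755 differed by -7.37 ± 0.88 with 1 root array well above background, and AT1G11185 by 6.33 ± 0.17 with the spot of root replicate 1 left out. Over the class, 30 of 169 loci that overlap a coding gene were higher and 32 lower in root, and of 112 that overlap none 35 were higher and 24 lower.

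**Figure D4:**
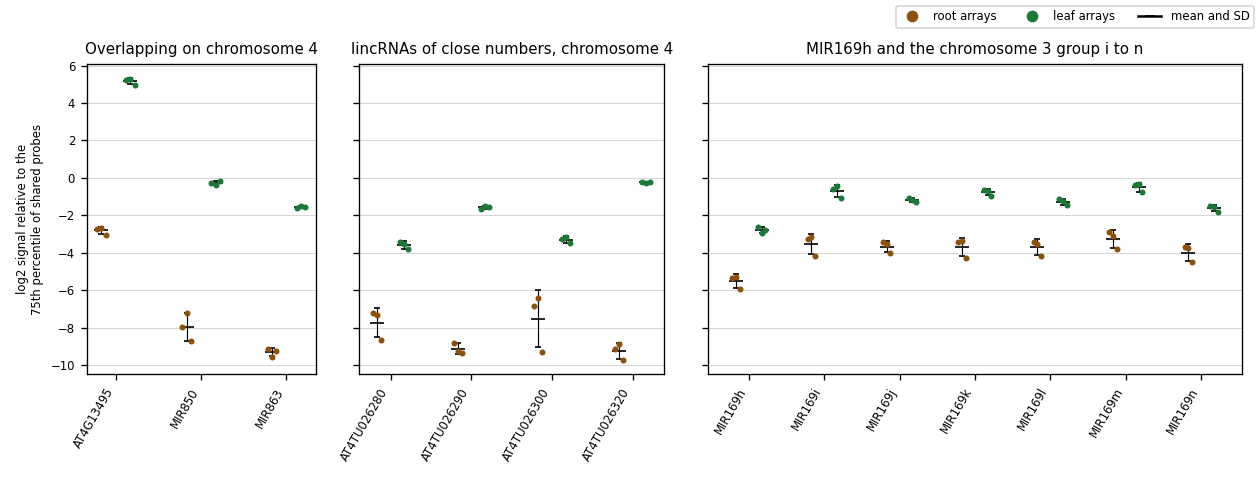
Signal on each array, as log2 signal relative to the 75th percentile of shared probes (vertical axis), for AT4G13495 with the microRNA precursors it overlaps (left), 4 lincRNAs of close numbers on chromosome 4 (middle), and MIR169h with MIR169i to MIR169n, which lie next to each other on chromosome 3 (right). Brown points are root arrays, green points leaf arrays, and black marks the mean and SD. For each of the 14 transcripts every leaf array lies above every root array, as for 16.7% of all genes tested.

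microRNA precursors are described by family. Over the tested precursors as a class, 16.7% were higher and 20.8% lower in root. Auxin-related families had 3 of 11 tested precursors higher and 4 lower in root, with a median of -0.50. Of these, MIR167a, MIR167b and MIR167d, were each probed a second time under a locus code, and over all 14 probe sets 3 were higher and 7 lower. MIR167, which targets the auxin response factors ARF6 and ARF8, had 7 probe sets, of which the 6 of MIR167a, MIR167b and MIR167d were lower in root. Those of MIR167a and MIR167b differed by -2.54 to -2.13. MIR167b had -3.66, -3.75 and -3.90 in root, against -1.48, -1.5 and -1.56 in leaf (-2.26 ± 0.16, limma adjusted p = 2.37e-05), and under its locus code it differed by -2.21 ± 0.19. MIR167d was not well above background in root, with -7.78, -7.19 and -8.55 there, against -0.72, -0.67 and -0.88 in leaf, under its locus code. It was at least 87.9-fold lower in root by that probe set and at least 39.9-fold by the one named for the microRNA. Direction toward leaf held for these 6 in all scalings, with 2 of 6 called under median scaling.

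MIR167c was the exception within its family, called higher in root (1.26 ± 0.41, limma adjusted p = 0.0483). That call was lost without root replicate 1, 2 or 3 or leaf replicate 2 or 3 (0.98 to 1.39), and the sign turned with normexp (-0.50). MIR171c, which targets scarecrow-like factors, had -3.60, -3.46 and -3.64 in root, against -5.51, -6.29 and -5.33 in leaf (2.15 ± 0.27), and turned sign with normexp (-0.13). MIR160c, which targets auxin response factors, differed by 1.53 ± 0.20, with an outlier spot on leaf replicate 2 left out, and pointed the other way in the deposited value table (-1.21). MIR393b, which targets the receptor TIR1, was lower in root (-1.17 ± 0.27) and lost its call without root replicate 3 (-0.89).

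Families of leaf, shoot and phase control had 5 of 22 precursors higher and 3 lower in root (median 0.39). These counts are close to the 16.7% and 20.8% of the class. MIR165 and MIR166, which share targets, the HD-ZIP III factors that pattern leaves and vascular tissue, were higher in root in 5 of 6 cases. MIR166b had -2.79, -2.91 and -3.08 in root, against -4.77, -5.29 and -4.94 in leaf (2.07 ± 0.19, limma adjusted p = 9.53e-05). MIR166a, MIR166c, MIR166d and MIR165b differed by 1.43 ± 0.22, 1.28 ± 0.26, 1.54 ± 0.21 and 1.41 ± 0.26, and MIR166e by 0.98 ± 0.22, just under 2-fold. All 6 were above 0 in each scaling except normexp, where 2 of 6 were and 0 were called. With the 75th percentile over all probes 1 of 6 was called.

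MIR157c, whose family targets SPL factors and holds plants in the juvenile phase, was lower in root, with -4.92, -4.91 and -7.84 in root, against -1.69, -1.82 and -1.78 in leaf (-4.13 ± 0.76). MIR156c (-1.21 ± 0.29) and MIR156h (-1.09 ± 0.25) were close to the 2-fold limit. MIR156c lost its call without root replicate 1 or 3 or leaf replicate 1 or 2 (-1.18 to -1.06), and MIR156h without root replicate 3 (-0.88). MIR159a, MIR159b and MIR159c, which target MYB factors related to GAMYB, differed by 0.20 ± 0.22, -0.06 ± 0.14 and -0.10 ± 0.70 and were not called. Close copies of 1 family can share probe signal, so that values of single copies are uncertain.

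Families of mineral nutrition had 1 of 16 precursors higher and 4 lower in root (median -1.48), and 14 of the 16 belonged to MIR169, which targets NF-YA subunits. The share lower in root was 20.8% over the class, so that count is close to the background. MIR169a had -3.63, -3.76 and -3.70 in root, against -1.72, -1.62 and -1.55 in leaf (-2.07 ± 0.17, limma adjusted p = 5.55e-05). MIR169i to MIR169n lie next to each other on chromosome 3 in the TAIR10.1 gene table, and with MIR169h they differed by -2.38 to -2.94. MIR169k had -3.42, -3.38 and -4.26 in root, against -0.63, -0.67 and -0.95 in leaf (-2.94 ± 0.62). None of these 7 overlapped between the organs, and over the class 62 of the 96 tested precursors did not. Calls were made for MIR169j, MIR169k and MIR169m, with standard errors of 0.57 to 1.21 over the 7 in the fit that includes the inflorescence arrays. With the 6 root and leaf arrays alone in the fit all 7 passed (standard errors 0.212 to 0.344, limma adjusted p = 0.000589 to 0.00233). With the replicate block 5 of 7 did, and without root replicate 3 the calls of MIR169j, MIR169k and MIR169m were lost (-2.31, -2.65 and -2.51). MIR169c went the other way, at least 3.91-fold higher in root, and turned sign with normexp (-0.18).

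**Figure D5:**
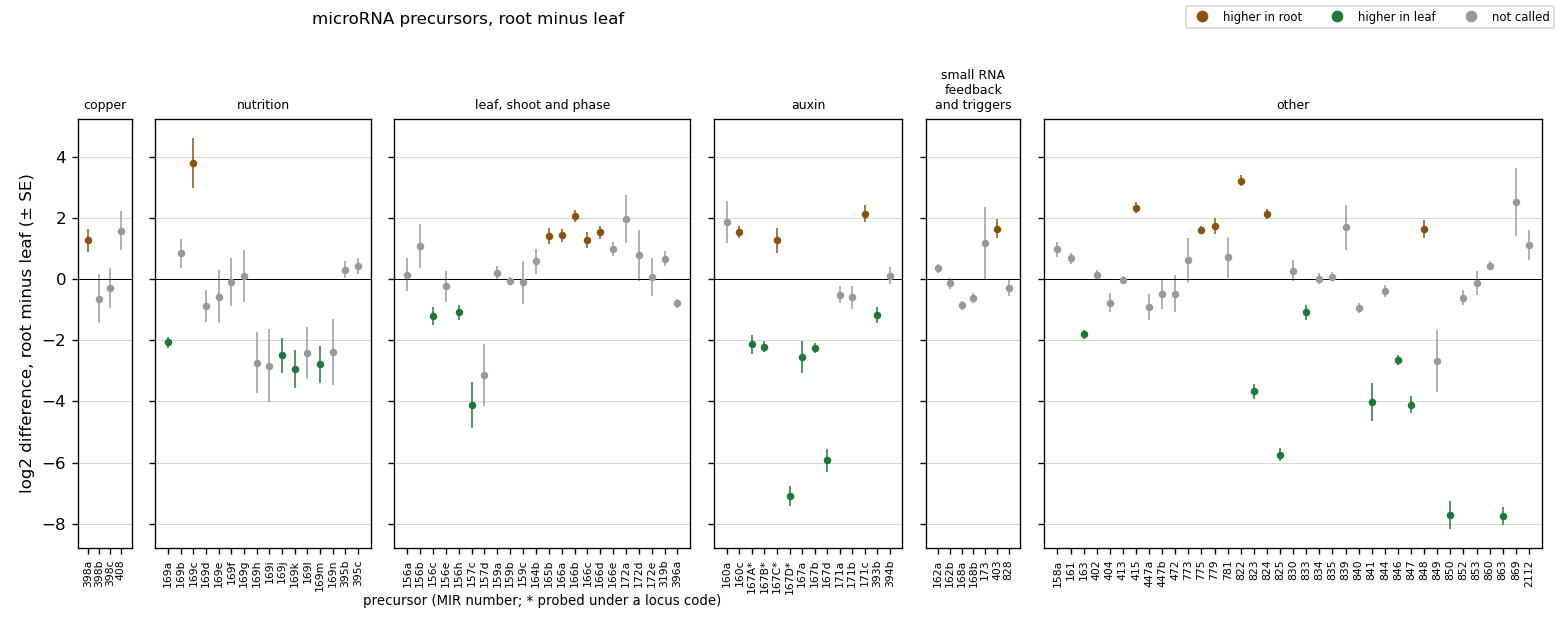
Difference between root and leaf (log2, root minus leaf, vertical axis) with its standard error for each tested microRNA precursor, grouped by the role of its family. Brown points were called higher in root, green points higher in leaf and grey points were not called; an asterisk marks the 4 MIR167 loci probed under a locus code, and MIR167a, MIR167b, MIR167d and MIR169h to MIR169n lie below 0 while MIR165 and MIR166 lie above it.

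Of 4 tested precursors of copper-responsive families, MIR398a, which targets copper superoxide dismutases, was called higher in root (1.27 ± 0.38), with 1.08, 1.05 and 0.73 in root, against -0.27, -0.31 and -0.36 in leaf. The arrays did not overlap, yet the call was lost without any 1 of the 6 arrays (1.20 to 1.38), and its limma adjusted p over all arrays was 0.039. That fit shares its spread with the inflorescence arrays, where MIR398a was not well above background (SD 0.84). With the 6 root and leaf arrays alone in the fit, the standard error was 0.169 (limma adjusted p = 0.00332). MIR408 differed by 1.59 ± 0.64 and was not called, but passed with the 6 root and leaf arrays alone in the fit (limma adjusted p = 0.0387). MIR398b and MIR398c differed by -0.64 ± 0.81 and -0.30 ± 0.65. Their standard errors were 0.166 and 0.205 with the 6 arrays alone, and both differences were under 2-fold.

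Among precursors that act on the silencing machinery itself, MIR403, which targets AGO2, was called higher in root (1.66 ± 0.31), with -3.76, -3.93 and -4.25 in root, against -5.74, -4.96 and -6.21 in leaf. Its sign turned with normexp (-0.33). The other 6 of the 7 were not called: MIR168a, which targets AGO1, differed by -0.86 ± 0.15, and MIR162a, which targets DCL1, by 0.35 ± 0.14.

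Among the 37 precursors of other families, 6 were higher and 9 lower in root, close to the 16.7% and 20.8% of the class. MIR822 had 0.62, 0.67 and 0.55 in root, against -2.52, -2.64 and -2.65 in leaf (3.22 ± 0.18, limma adjusted p = 5.92e-06). MIR415 had 1.55, 1.60 and 1.48 in root, against -0.80, -0.94 and -0.65 in leaf (2.34 ± 0.19). MIR824, which targets the MADS-box gene AGL16, had -1.45, -1.42 and -1.76 in root, against -3.70, -3.65 and -3.67 in leaf (2.13 ± 0.16). In each case all root arrays were above all leaf arrays. MIR775 (1.61 ± 0.14), MIR848 (1.63 ± 0.30) and MIR779 (1.74 ± 0.26) were also higher in root, the last with its sign turned under normexp (-0.28). MIR824, MIR775 and MIR848 lost their calls with normexp, and MIR775 and MIR848 also with the 75th percentile over all probes. Toward leaf, MIR841 differed by -4.02 ± 0.61, MIR823, which targets the DNA methyltransferase CMT3, by -3.67 ± 0.26, and MIR163 by -1.81 ± 0.15. MIR825 was at least 13.7-fold and MIR847, which targets IAA28, at least 11.4-fold lower in root. MIR825 and MIR847 lost their calls with normexp, and both and MIR823 lost them when dim signals were raised to a common floor. MIR163 lost its call when arrays were scaled over all probes, by the 75th percentile or the median. MIR846 was called lower in root (-2.65 ± 0.18), but its probes disagreed and their mean pointed toward root (1.097).

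Some known targets of these microRNAs were on the array, and their differences are set beside those of the precursors; the pairs were chosen after the values were seen, and no relation between them was tested. NF-YA5, a target of miR169, was lower in root (-2.23 ± 0.14), as were MIR169a, MIR169j, MIR169k and MIR169m. IAR3, an amidohydrolase that frees auxin and is a target of miR167, differed by 0.48 ± 0.17 and was not called. NAC1 and NAC080, targets of miR164, differed by 1.36 ± 0.37 and 4.04 ± 0.12, against 0.58 ± 0.41 for MIR164b, the 1 precursor of that family tested. The call of NAC1 was lost without root replicate 1, 2 or 3 or leaf replicate 2 or 3 (0.99 to 1.48), and its sign turned with normexp (-0.60). TIR1 differed by -0.30 ± 0.22, against -1.17 ± 0.27 for MIR393b, and AGO2 by 0.65 ± 0.14, against 1.66 ± 0.31 for MIR403. NLA, a ubiquitin ligase of nitrogen and phosphate balance and a target of miR827, was higher in root, with 3.70, 3.24 and 3.60 in root, against 0.27, 0.40 and 0.74 in leaf (3.05 ± 0.20), while its precursor was too dim to test.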

How the data were processed

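Root and leaf RNA was measured on 1-colour Agilent arrays, 3 biological replicates per organ per the series design. Per the file headers, the deposited intensity is the processed signal of Agilent Feature Extraction 10.5.1.1 with protocol GE1_105_Dec08, background-subtracted by the scanner software. A deposited value table was used as an alternative: its scale was taken as log2 from its comparison with the authors' scanner signals (r = 0.966 to 0.998), its columns have medians of 1.41 to 1.42, and the sources used here do not give its normalisation.

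Of 15549 spots, 15013 belonged to gene probes, of which 71 outlier spots were left out and 0 were saturated. Most genes (4650) had 3 probes. The brightest probe, by its mean over the 9 arrays, represented each gene. Processed signals were put on the log2 scale and scaled per array to the 75th percentile of the 1345 probes well above background on all 9 arrays. limma 3.58.1 in R 4.3.3 was fitted to all 9 arrays, with Benjamini-Hochberg adjustment over the 1898 genes. On simulated data for this comparison with 1898 genes, 47 of 100 genes changed by 1.5 (log2) and 79 of 100 changed by 3 were called, with 4 false calls. For genes unseen on every array of 1 organ, a lower bound of the fold is given. Of 405 loci listed by code, 400 were matched to the RefSeq gene table of TAIR10.1, used for names, overlaps and neighbours only, since the array names an older build. The normexp alternative used median foreground and background signals, because the mean signal that was planned is not among the columns used.

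Same-numbered root and leaf samples deviated together (r = 0.497, 0.158 and 0.581). The sources used here do not say that they are pairs, and the main fit was unpaired. The numbers were taken as pairs in the replicate block alone, an alternative setting. Numbers also follow the slide, and on slide 1 root replicate 2 and leaf replicate 1 gave 0.559, and root replicate 1 and leaf replicate 2 gave 0.183. Pairing by number therefore cannot be told apart from the slide. Genes were named by size of difference or bound within each class (10 and 6 lincRNAs, 6 annotated loci, 8 precursors and 5 other coding genes per direction), with the members of the gene lists. For non-coding loci and precursors, only genes well above background on all 6 arrays, or on none of the dimmer organ, were eligible under this rule, and other precursors were named as members of their families. The members and the lists were chosen with earlier results of these data known. The ecotype labels carry running numbers, while the protocol names Col-0 for all. Depth does not apply to arrays; their number limits the precision.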

Additional observations from a re-analysis of the deposited data

How the results depend on the processing

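Counts of calls were recomputed under 23 other settings. Of 230 counts, 197 stayed within 1.5 times the reported value. Of 4785 values of the 212 named genes, 4444 kept direction and side of the threshold, 201 lost the call, 126 gained one and 14 changed sign. The replicate block gave 367 genes higher and 223 lower in root, including all 488 reported calls, so treating equal numbers as pairs ended none. Leaving out 1 array gave 234 to 321 higher and 169 to 238 lower. By class, that gave 139 to 213 and 78 to 132 lincRNAs, 15 to 18 and 14 to 23 precursors, 60 to 70 and 52 to 57 annotated loci, and 18 to 21 and 24 to 27 coding genes.

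With the 75th percentile over all probes, 10 precursors, 40 annotated loci and 13 coding genes were higher in root, and 28 annotated loci and 16 coding genes lower. With the median of all probes, 90 genes were lower: 47 lincRNAs, 13 precursors, 17 annotated loci and 13 coding genes. With normexp, 64 genes were higher (22 lincRNAs, 2 precursors, 27 annotated loci and 13 coding genes), and 50 lincRNAs lower. Among genes measured on all 6 arrays, 80 were higher (32 lincRNAs, 6 precursors, 30 annotated loci and 12 coding genes), and 53 lincRNAs and 10 precursors lower. With a common floor, 173 were higher (93 lincRNAs and 10 precursors) and 55 lincRNAs lower. With the mean of all probes, 183 were higher (81 lincRNAs) and 54 lincRNAs lower. With slide as a block and without Leaf replicate 2, 378 were lower (251 lincRNAs and 37 precursors), over more genes tested. Apart from such changes in the genes tested, the cause was not tested.

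Signs turned with normexp for NAC1 (-0.60), MIR167c (-0.50), TAS4 AT3G25795 (-0.46), IAA30 (-0.27), MIR165b (-0.16), MIR166c (-0.071), MIR166d (-0.02), MIR169c (-0.18), MIR171c (-0.13), MIR403 (-0.33) and MIR779 (-0.28). MIR160c turned with the deposited log2 values (-1.21), and AT1TU011860 (-0.85) and MIR846 (1.097) with the mean of probes. The background of leaf replicate 2 limits what could be measured in leaf.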

Other observations

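Among called lincRNAs with numbers at most 30 apart, AT1TU043130 and AT1TU043160 were both higher in root (4.73 ± 0.99, and at least 141-fold), as were AT5TU092090 and AT5TU092100 (4.20 ± 0.50 and 5.77 ± 0.45). AT5TU052750 and AT5TU052760 were both lower in root, at least 20.7-fold and 17-fold. The 2 pairs that went opposite ways were AT1TU005330 with AT1TU005340 (1.44 ± 0.37 and -1.20 ± 0.24) and AT3TU042210 with AT3TU042220 (-2.00 ± 0.64, and at least 2.86-fold higher in root). These pairs were named after their values were seen.

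Other coding genes outside the lists that were higher in root, also named after their values were seen, were TSB2, a tryptophan synthase subunit (1.1 ± 0.19), and STRS2, a DEAD-box RNA helicase of stress responses (1.48 ± 0.12).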
